A study of Mus musculus with 12 samples.

Results

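The 10 genes described here were 5 mucins (Muc1, Muc4, Muc5ac, Muc6 and Muc20), the 3 trefoil factors (Tff1, Tff2 and Tff3), Agr2 and Anxa10. They were taken by gene name from a count table of 57186 mouse genes, and each name matched 1 gene. RNA came from 3 tumor cell lines, DDKC_9750, DDKC_9790 and DDKC_9804, derived from the pancreas of DDKC mice, which lack Dkk3 in every tissue and carry Cre recombinase under the control of Ptf1a, active in the pancreas. Every group, controls included, shared this genotype and was grown in serum-containing medium. Each line was measured untreated and treated with rDKK3, a commercial recombinant form of the secreted glycoprotein DKK3, in 2 libraries per line and condition and 12 libraries in all. The concentration used for the RNA samples and the age of the animals behind these lines are not given in the sources used here, and neither is whether a line is 1 clone. The question addressed was which of these genes differed between lines and which differed when DKK3 was given back to Dkk3-null tumor cells.

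Mucins are large glycoproteins decorated with O-linked sugars. Gel-forming mucins (Muc5ac, Muc6) are secreted and build mucus, whereas Muc1, Muc4 and Muc20 are anchored in the apical membrane. Trefoil factors are small, disulfide-rich peptides secreted together with mucins. In the stomach, Tff1 and Muc5ac are products of surface cells and Tff2 and Muc6 of gland mucous cells, while Tff3 is best known from intestinal goblet cells. Agr2 is a protein disulfide isomerase of the endoplasmic reticulum needed for the folding of mucins, and Anxa10 is an annexin expressed in gastric epithelium. The normal pancreas makes little of these products, and pancreatic precursor lesions are known for gaining such a gastric program.

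Total counts ranged from 3822987 to 24541083 per library, from 7520741 to 24541083 in the untreated libraries and from 3822987 to 11567095 in the treated ones. Libraries of 1 culture (a line in 1 condition) agreed within sampling noise after adjustment for the library number series (Poisson deviance over its degrees of freedom, mean of 12979 genes, 0.780), but not without it (6.44). For Muc1, Tff1 and Tff2, the members with enough counts for this check, the value was 0.616, 0.873 and 0.316 without the adjustment. The libraries were summed, 1 of each series per culture, and counted as 1 sample, which left 6 cultures and n = 3 lines per condition. Levels are CPM, a library-size-scaled count, after TMM scaling, and 3 counts, the floor below which a level cannot be told from 0, corresponded to between 0.0856 and 0.291 CPM per culture. Dkk3 had 1 count in the 12 libraries together. Such a value does not follow from the genotype alone. In Dkk3-null acini the authors report Dkk3 RNA at about the wild-type level, from the intracellular isoform Dkk3b. The summed level of 9 duct-like epithelial markers was between 4093 and 9802 CPM, carried by keratins (Krt8 812 to 2839 CPM) and Cdh1, whereas Epcam had at most 2.04 CPM and Cldn4 at most 0.698 CPM, and that of 8 mesenchymal markers between 7630 and 22476 CPM. This sum was highest in DDKC_9804 through Fn1 (17133 and 19288 CPM there), whereas Vim was highest in DDKC_9790 (4795 CPM in untreated cells, against 3379 CPM in DDKC_9804). Acinar markers summed to at most 12.3 CPM, nearly all Cela1, with Ptf1a and Cpa1 at 0, immune markers to at most 46.1 CPM, endothelial markers to at most 17.4 CPM and endocrine markers to at most 0.0860 CPM.

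Most of the 10 genes differed between lines, and none passed the test for rDKK3. DDKC_9750 had the highest levels of all 3 trefoil factors, Muc1, Muc4 and Muc5ac, DDKC_9790 had low levels of most of them and the highest level of Agr2, and DDKC_9804 had at most 3 counts per culture of Muc4, Muc5ac, Muc20, Tff1 and Tff3. Of the 10 genes, 8 had enough counts to be tested, and Muc6 and Muc20 did not. In edgeR's quasi-likelihood test over the lines, 7 of the 8 differed at an adjusted p under 0.05, all but Anxa10, against 35.3% of the 15165 genes tested. By pairs of lines, 7 of the 8 differed between DDKC_9750 and DDKC_9790 (27.0% of all genes), 6 between DDKC_9750 and DDKC_9804 (18.5%) and 4 between DDKC_9790 and DDKC_9804 (21.3%). Both cultures of DDKC_9750 lay above the other 4 for 7 of the 8 genes, against 20.2% of all genes tested, and both of DDKC_9790 did for Agr2, against 20.5%. These counts are a description, because a gene with few counts enters the test only through the line in which it is high. In bulk RNA, fewer cells making a transcript and less transcript per cell cannot be told apart.

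**Figure D1:**
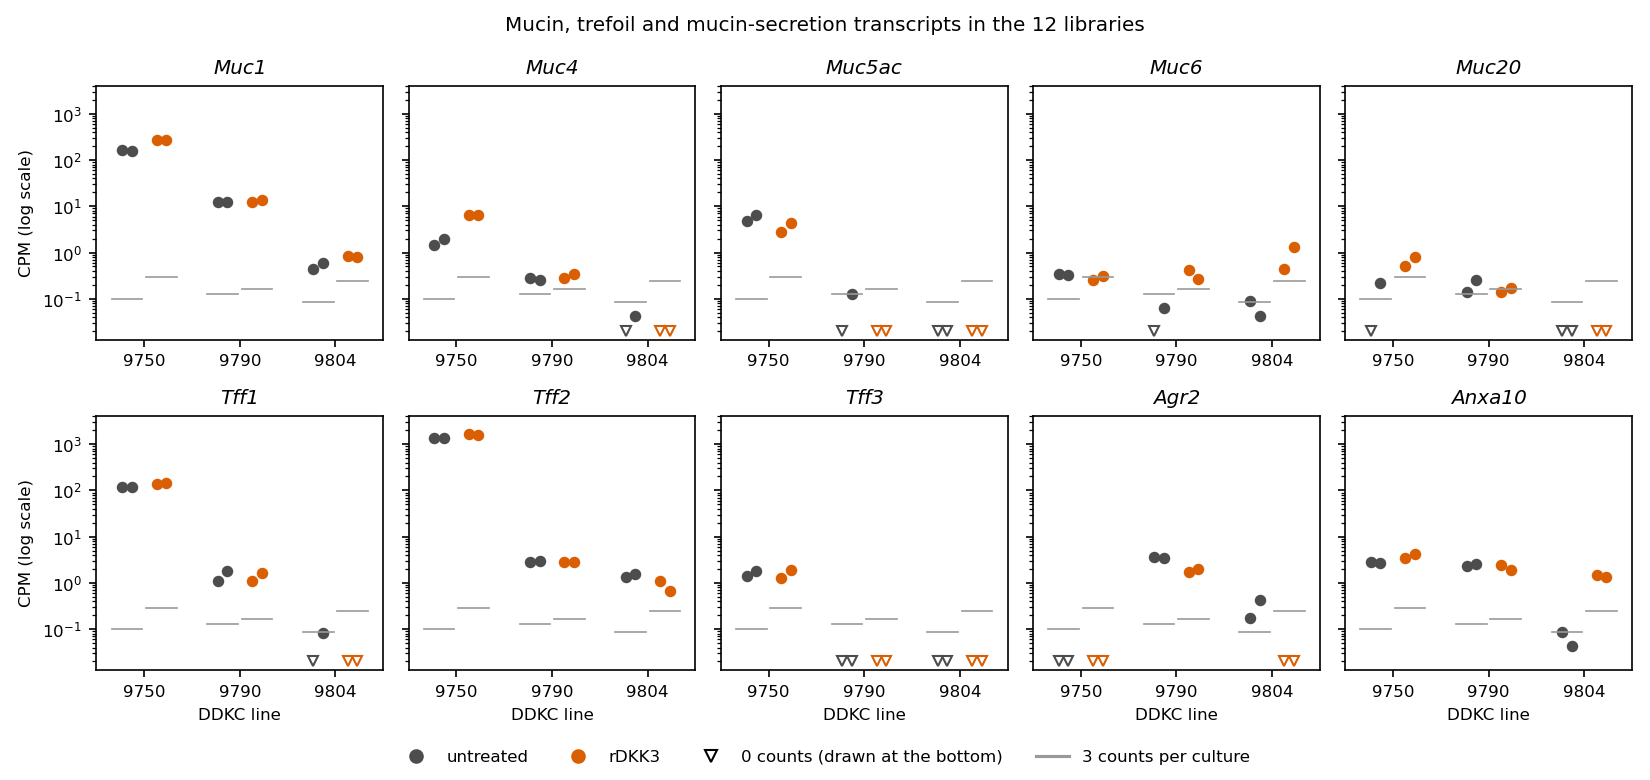
Levels of the 10 genes in the 12 libraries, in CPM on a log scale, by line (x axis) and condition (gray, untreated; orange, rDKK3). Each point is 1 library, open triangles drawn at the bottom are libraries with 0 counts, and gray bars mark 3 counts per culture; Tff2 lies near 1354 CPM in untreated DDKC_9750 and at 2.94 CPM or below in the untreated libraries of the other lines.

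The trefoil factor genes lie side by side on the minus strand of chromosome 17 (GRCm39), Tff3 at chr17:31344280-31348620, Tff2 at chr17:31360023-31363256 and Tff1 at chr17:31380369-31384251, separated by 11402 and 17112 bases. The promoters of Tff1 and Tff2 are printed because both genes shared 1 pattern over the lines. Each runs 5′ to 3′ from 250 bases before to 50 bases after the start of the canonical GENCODE transcript on GRCm39, on the minus strand, at chr17:31384202-31384501 for Tff1 and chr17:31363213-31363512 for Tff2.
Tff1: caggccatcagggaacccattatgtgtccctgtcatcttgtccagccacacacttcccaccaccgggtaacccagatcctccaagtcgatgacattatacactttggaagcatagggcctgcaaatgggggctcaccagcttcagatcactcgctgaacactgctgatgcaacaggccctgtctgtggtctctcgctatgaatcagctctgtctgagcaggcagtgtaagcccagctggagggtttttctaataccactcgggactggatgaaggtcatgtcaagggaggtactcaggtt
Tff2: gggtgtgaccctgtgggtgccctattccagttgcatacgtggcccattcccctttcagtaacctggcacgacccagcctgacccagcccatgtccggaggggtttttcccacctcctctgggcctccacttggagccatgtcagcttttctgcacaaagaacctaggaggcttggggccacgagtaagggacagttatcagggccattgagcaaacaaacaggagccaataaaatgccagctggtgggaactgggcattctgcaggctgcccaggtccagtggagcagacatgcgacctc
Capitals would mark a match, on either strand, to 1 of 5 short motifs that were searched, and both sequences hold none. The STAT motif, TTCNNNGAA, was present in 8.8% of 21770 promoters of the same length and in 0 of the 9 promoters searched among the genes described here. The AP-1 motif, TGACTCA, was present in 4.7% of all promoters and in that of Anxa10. The FOXA motif, TGTTTAC, was present in 3.1% of all promoters and in those of Muc5ac and Muc20. The GATA motif, AGATAA, was present in 10.6% of all promoters and in that of Muc6. The E-box, CACGTG, was present in 7.8% of all promoters and in that of Muc5ac.

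Tff2 had the highest level of the 10 genes in DDKC_9750 and untreated DDKC_9804, and through DDKC_9750 the highest mean over all cultures. In DDKC_9790, Muc1 lay above it (12.5 and 13.1 CPM in untreated and treated cells), as did Agr2 in untreated cells (3.48 CPM). In treated DDKC_9804, Anxa10 (1.40 CPM) and Muc6 (0.985 CPM) lay above Tff2, from 17, 12 and 10 counts. These CPM are not scaled for gene length. Per kilobase of exon, Tff2 (1.39 CPM) lay above Anxa10 (0.782 CPM) and Muc6 (0.0632 CPM) in treated DDKC_9804. In untreated DDKC_9790, Tff2 (4.88 CPM per kilobase) then lay above Agr2 (4.16 CPM) and still below Muc1 (5.56 CPM). Tff2 had 1354 CPM in untreated and 1608 CPM in treated DDKC_9750. It had 2.88 and 2.87 CPM in DDKC_9790, and 1.45 and 0.821 CPM in DDKC_9804. Both cultures of DDKC_9750 stood above all others, 470-fold above DDKC_9790 (95% counting interval 370 to 607) and 931-fold above DDKC_9804 (708 to 1251) in untreated cells. The fitted log2 difference from DDKC_9750 was -9.01 ± 0.32 (SE) in DDKC_9790 (adjusted p = 0.00143) and -10.24 ± 0.34 in DDKC_9804 (adjusted p = 0.000852). DDKC_9790 and DDKC_9804 also differed, by -1.23 ± 0.29 (adjusted p = 0.0416). In DDKC_9790 and DDKC_9804, Tff2 rested on 10 to 67 counts per culture.

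Tff1 followed the same order at a lower level. It had 116 and 140 CPM in untreated and treated DDKC_9750, 1.59 and 1.46 CPM in DDKC_9790, and 0.0570 and 0 CPM in DDKC_9804. In untreated cells, DDKC_9750 was 72.7-fold above DDKC_9790 (52.6 to 103), and in treated cells 95.8-fold (65.5 to 146). Treated DDKC_9804 had 0 counts. Against its floor of 3 counts, treated DDKC_9750 was 567-fold higher, and the counting interval began at 461-fold. Untreated DDKC_9790 was 27.9-fold above DDKC_9804, with a wide interval (7.19 to 239) because DDKC_9804 had 2 counts, under the floor.

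Tff3 was detected in DDKC_9750 alone. It had 1.66 CPM in untreated and 1.65 CPM in treated cells, from 50 and 17 counts, and 0 counts in the 4 cultures of the other lines. Against the floor of 3 counts, untreated DDKC_9750 was 12.9-fold above DDKC_9790 and 19.4-fold above DDKC_9804. The counting intervals began at 10.1-fold and 15.2-fold. Per kilobase of exon, the mean level in DDKC_9750 was 2511 CPM for Tff2, 182 CPM for Tff1 and 3.21 CPM for Tff3, so the 3 neighboring genes spanned a wide range within the same cultures. Among the coding neighbors, Tmprss3, a transmembrane serine protease gene 13987 bases from Tff1, had a mean of 1.99 CPM in DDKC_9750 and 0 in the other lines, whereas Abcg1, a lipid transporter gene 7317 bases from Tff3, had at most 0.148 CPM in any line and Ubash3a had 0 counts.

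The gel-forming mucins gave 1 gene with a clear pattern and 1 near the floor. Muc5ac, on the plus strand at chr7:141342709-141372968, had 5.78 and 3.69 CPM in untreated and treated DDKC_9750, 0.0860 and 0 CPM in DDKC_9790, and 0 in both cultures of DDKC_9804. It was 67.2-fold higher in untreated DDKC_9750 than in DDKC_9790, with a wide interval (18.3 to 560) because DDKC_9790 had 2 counts. The difference between DDKC_9790 and DDKC_9804 did not pass the test (adjusted p = 0.259), and both lay under the floor. The Muc5ac promoter (chr7:141342459-141342758, plus strand) is shown because it held a FOXA and an E-box match, in capitals. The match describes the letters only.
Muc5ac: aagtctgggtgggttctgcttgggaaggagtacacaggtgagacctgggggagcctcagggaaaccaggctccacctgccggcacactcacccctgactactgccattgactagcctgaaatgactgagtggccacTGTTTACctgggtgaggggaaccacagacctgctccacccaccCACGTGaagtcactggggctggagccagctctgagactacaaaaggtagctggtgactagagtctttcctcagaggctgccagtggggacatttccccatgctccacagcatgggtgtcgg
Muc6, on the minus strand at chr7:141213373-141241641, had 10 and 3 counts in DDKC_9750, 1 and 6 in DDKC_9790, and 2 and 12 in DDKC_9804, in untreated and treated cells. Its highest level was 0.985 CPM, in treated DDKC_9804. The Muc6 values did not single out DDKC_9750, and the low-count filter left the gene out of the test. With no such filter it did not pass between lines (adjusted p = 0.783, edgeR).

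Among the membrane mucins, Muc1 had the highest level. This gene, at chr3:89136364-89140688 on the plus strand, had 161 and 273 CPM in untreated and treated DDKC_9750, 12.5 and 13.1 CPM in DDKC_9790, and 0.542 and 0.821 CPM in DDKC_9804. The 3 lines did not overlap, and each step was more than 10-fold. Untreated DDKC_9750 was 12.9-fold above DDKC_9790 (11.4 to 14.6), which in turn was 23.1-fold above DDKC_9804 (14.5 to 38.9). The fitted log2 difference from DDKC_9750 was -4.03 ± 0.22 in DDKC_9790 (adjusted p = 0.00240) and -8.31 ± 0.29 in DDKC_9804 (adjusted p = 0.000852). Per kilobase, Muc1 had a mean of 96.3 CPM in DDKC_9750, below Tff1 and above Tff3.

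Muc4 and Muc20 lie on opposite strands of chromosome 16 and overlap by 4962 bases, Muc4 at chr16:32555015-32602754 and Muc20 at chr16:32597793-32617805. Counting was strand-specific. Muc4 had 1.79 and 6.60 CPM in untreated and treated DDKC_9750, 0.258 and 0.324 CPM in DDKC_9790, and 0.0285 and 0 CPM in DDKC_9804. These levels rested on 54 and 68 counts in DDKC_9750, 6 and 6 in DDKC_9790, and 1 and 0 in DDKC_9804, so that Muc4 entered the test through DDKC_9750. Treated DDKC_9750 was 20.3-fold above treated DDKC_9790 (8.88 to 57.4), against 6.96-fold in untreated cells. Against the floor of 3 counts it was 26.8-fold above treated DDKC_9804, with a counting interval that began at 21.2-fold. In untreated cells DDKC_9790 lay 9.05-fold above DDKC_9804, with a wide interval (1.10 to 416) because DDKC_9804 had 1 count, under the floor. The fitted difference in Muc4 between these lines did not pass edgeR's test (adjusted p = 0.0998). Muc20 had 4 and 7 counts in DDKC_9750, 5 and 3 in DDKC_9790, and 0 in DDKC_9804. No order of DDKC_9750 and DDKC_9790 can be read from these Muc20 counts.

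Agr2 had another order of lines than the other genes. It had 0 counts in both cultures of DDKC_9750, 3.48 and 1.89 CPM in untreated and treated DDKC_9790, and 0.342 and 0 CPM in DDKC_9804. The line with the most trefoil factor and mucin transcripts thus had no detectable Agr2, where 3 counts allow up to 0.0997 CPM in untreated and 0.291 CPM in treated cells. Untreated DDKC_9790 was 34.9-fold above DDKC_9750 against the floor of 3 counts, with a counting interval that began at 27.8-fold. It was 10.2-fold above DDKC_9804 (5.52 to 20.5). The fitted log2 difference between DDKC_9804 and DDKC_9790 was -3.86 ± 0.83 (adjusted p = 0.0433), and that between DDKC_9804 and DDKC_9750 missed the threshold (adjusted p = 0.138). Agr2 entered the test through DDKC_9790, which held 116 of its 128 counts, so these fitted values are a description. Agr2 lies at chr12:36042906-36054086 on the plus strand, and its paralog Agr3, 43170 bases away, had 0 counts. The Agr2 promoter (chr12:36042654-36042953, plus strand) is shown as the counterpart of the Tff1 and Tff2 promoters, and it held none of the 5 motifs.
Agr2: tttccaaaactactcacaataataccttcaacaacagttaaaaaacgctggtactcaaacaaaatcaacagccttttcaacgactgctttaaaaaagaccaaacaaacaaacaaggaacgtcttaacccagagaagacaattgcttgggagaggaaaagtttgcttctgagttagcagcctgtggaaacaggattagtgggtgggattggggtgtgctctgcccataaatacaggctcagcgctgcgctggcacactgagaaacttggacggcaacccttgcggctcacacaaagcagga

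Anxa10 was the gene of the 8 that did not pass the test between lines (adjusted p = 0.169). It had 2.73 and 3.98 CPM in untreated and treated DDKC_9750, 2.49 and 2.11 CPM in DDKC_9790, and 0.0570 and 1.40 CPM in DDKC_9804. In untreated cells the ratio of DDKC_9750 to DDKC_9790 was 1.09, with an interval that included 1 (0.771 to 1.56), and in treated cells it was 1.89, with an interval that began at 1.19, while untreated DDKC_9804 had only 2 counts. The Anxa10 promoter (chr8:62576103-62576402, minus strand; gene at chr8:62510076-62576184) held the 1 AP-1 match among the 9 promoters, in capitals, and is shown for it.
Anxa10: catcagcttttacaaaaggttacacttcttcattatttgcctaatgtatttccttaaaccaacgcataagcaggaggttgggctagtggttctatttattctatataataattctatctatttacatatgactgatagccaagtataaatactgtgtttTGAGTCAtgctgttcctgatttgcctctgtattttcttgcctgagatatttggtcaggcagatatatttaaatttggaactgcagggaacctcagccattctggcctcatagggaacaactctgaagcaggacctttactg

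**Figure D2:**
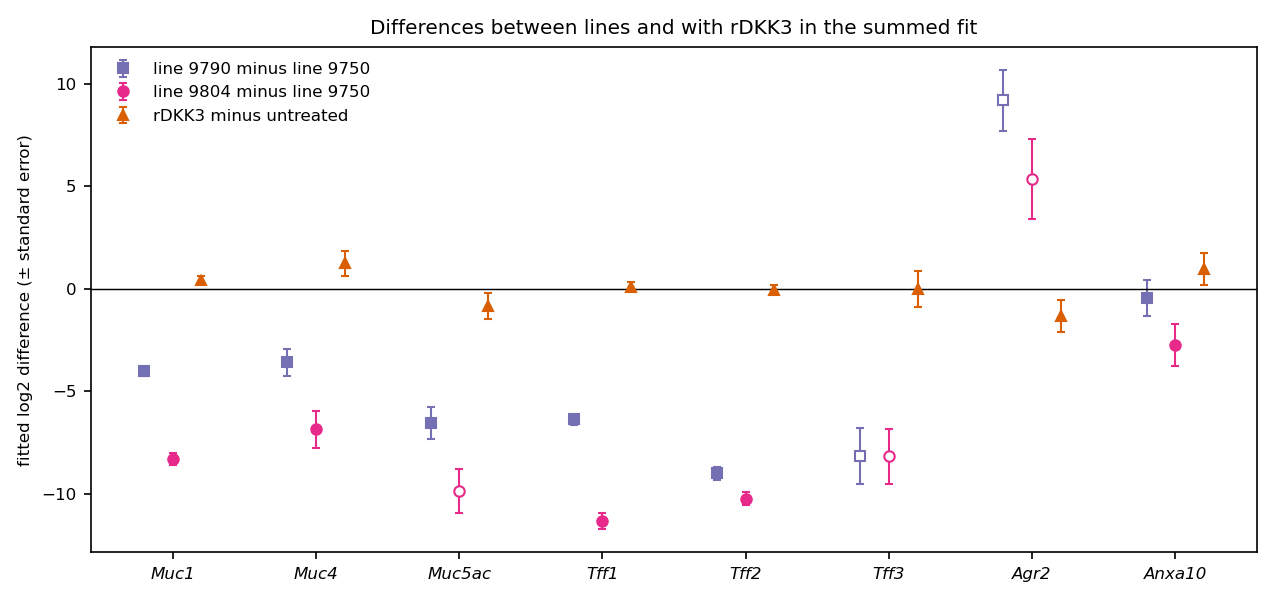
Fitted log2 differences with standard errors (y axis) for the 8 tested genes (x axis), between lines (squares, circles) and between rDKK3 and untreated cells (triangles), from the fit over 6 cultures. Open symbols are differences in which 1 line had 0 counts, whose size depends on the fit and is no bound; the line differences reach -11.36 for Tff1, which had 2 counts in DDKC_9804, whereas the rDKK3 differences lie between -1.32 and 1.25.

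With rDKK3, none of the 8 tested genes passed the threshold of edgeR's quasi-likelihood test, in which the line was a term, and none had an unadjusted p under 0.05. Over all genes 1 of 15165 passed (0.00659%), and 8.53% had an unadjusted p under 0.05. DESeq2 gave an adjusted p for Muc1, Tff1 and Tff2 alone, and called none of these 3. Agr2 had a fitted log2 fold change of -1.32 ± 0.79 (adjusted p = 0.672) and Muc4 one of 1.25 ± 0.61 (adjusted p = 0.625). Muc1 had 0.45 ± 0.19 (adjusted p = 0.589), Anxa10 0.97 ± 0.80 (adjusted p = 0.737), and Muc5ac -0.83 ± 0.65 (adjusted p = 0.732). The sizes moved with the line left out, so they give no ranking. Muc4 had 0.11 and Muc5ac -3.34 without DDKC_9750, Agr2 had -5.03 without DDKC_9790 and -0.87 without DDKC_9804, and Anxa10 had 1.89 without DDKC_9790 and 0.16 without DDKC_9804. Without DDKC_9750, Muc5ac had 2 counts left, and without DDKC_9790, Agr2 had 12, all in untreated cells. The values -3.34 and -5.03 thus depend on the fit and are no measure of size. Muc1 had 0.21 without DDKC_9750 and 0.72 without DDKC_9790. The trefoil factors had 0.11 ± 0.23 for Tff1, -0.03 ± 0.21 for Tff2 and -0.01 ± 0.87 for Tff3.

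Of the 8 genes, only Muc1 was higher with rDKK3 in each of the 3 lines, against 14.2% of all genes tested, and none was lower in each, against 18.1%. The counting intervals below cover counting error only, since a line had 1 culture per condition, and they test no effect of rDKK3. In DDKC_9750, Muc1 was higher by 0.76 on the log2 scale (0.69 to 0.82) and Muc4 by 1.88 (1.34 to 2.42), and both treated libraries lay above both untreated ones. In DDKC_9790, Muc1 differed by 0.07 (-0.18 to 0.32), and by -0.03 in the libraries of the lower series alone, and in DDKC_9804 by 0.60 (-0.67 to 1.78) from 19 and 10 counts. When the 12 libraries were instead taken as separate samples, Muc1 passed with 0.47 (adjusted p = 0.0163) and Muc4 with 1.43 (adjusted p = 0.0184). That fit called 18.1% of all genes, 7.95% as higher, and it counts 2 libraries of a culture as if they were independent.

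Of the secreted products in DDKC_9750, Tff1 was higher with rDKK3 by 0.27 (0.18 to 0.36) and Tff2 by 0.25 (0.22 to 0.27), while Tff3 differed by -0.01 (-0.90 to 0.81). The log2 ratio of Muc5ac was -0.65 (-1.20 to -0.14), with both treated libraries below both untreated ones. Muc4 and Muc5ac thus differed in opposite directions in this line, with 1 culture per condition. In DDKC_9790, the intervals for Tff1 (-0.90 to 0.63) and Tff2 (-0.56 to 0.53) included 0. Tff2 in DDKC_9804 had -0.82 (-1.97 to 0.17).

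The log2 ratio of Agr2 was -0.88 (-1.50 to -0.29) in DDKC_9790. In DDKC_9804 counts went from 12 to 0, a 1.39-fold lower level against the floor. The counting interval reached 0.05 on the log2 scale and so included no change. Anxa10 and Muc6 had their largest ratios in DDKC_9804. Anxa10 went from 2 to 17 counts there, a log2 ratio of 4.61 (2.54 to 7.77), and Muc6 from 2 to 12 counts, a ratio of 4.11 (1.94 to 7.31). The untreated counts of both genes lay under the floor of 3 counts, so the size of these ratios is uncertain. Muc20 in DDKC_9750 had 4 and 7 counts, a log2 ratio of 2.35 (0.38 to 4.57). For Anxa10, DDKC_9750 (0.55, -0.03 to 1.10) and DDKC_9790 (-0.24, -0.87 to 0.37) had intervals that included 0. Whether the response differs between lines could not be tested with 1 culture per line and condition. In DDKC_9750, summed fibroblast markers were also higher in treated cells, 139 against 51.3 CPM, mainly Acta2 (127 against 38.1 CPM). Of the other 8 fibroblast markers there, Pdpn (4.27 against 0.266 CPM) was higher. Col1a1 (6.70 against 11.2 CPM) and Pdgfra (0.680 against 1.70 CPM) were lower. Col1a2 (0.388 against 0.0997 CPM) lay near the floor, which was 0.291 CPM in treated cells. Pdgfrb (0.194 against 0 CPM) and Dcn (0.0971 against 0 CPM) lay under it, and Col3a1 and Lum were at 0 in both. Summed duct-like markers were lower in treated cells of each line, 4093 against 5682 CPM in DDKC_9750, 8100 against 9802 CPM in DDKC_9790 and 4247 against 5332 CPM in DDKC_9804, and the keratins carried this. Sox9 was higher in treated cells of each line (146 against 108, 149 against 130 and 392 against 300 CPM, in the same order), and Cdh1 was higher in DDKC_9750 (1048 against 786 CPM) and DDKC_9804 (354 against 310 CPM) and lower in DDKC_9790. Summed immune markers were higher in treated cells of each line (10.6 against 9.64, 46.1 against 29.2 and 17.0 against 10.4 CPM), nearly all Cd68 and Csf1r, with Ptprc at most 0.0971 CPM and Adgre1, Cd3e and Lyz2 at 0. Summed endothelial markers were 17.4 against 8.04 CPM in DDKC_9804, nearly all Kdr, with Cdh5 at 0, and were lower in treated cells of the other lines. Of the 8 mesenchymal markers, Zeb2 (0.70 ± 0.16 on the log2 scale), Snai2 (0.81 ± 0.35) and Fn1 (0.21 ± 0.12) were higher with rDKK3 in each line, against 14.2% of all genes tested. Vim (-0.49 ± 0.14) and Twist1 (-0.32 ± 0.12) were lower in each, against 18.1%. None of the 8 passed the test, and 3 had an unadjusted p under 0.05, against 8.53% of all genes tested. Among the 8 duct-like markers tested, none passed either, and 4 had an unadjusted p under 0.05. The part of these markers in the values above was not tested. Treated cultures were also the shallower ones, and with all libraries thinned to equal depth the fitted log2 fold change was -0.47 for Agr2, -0.49 for Muc5ac, 0.65 for Anxa10, 0.38 for Muc1 and 1.85 for Muc4.

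**Figure D3:**
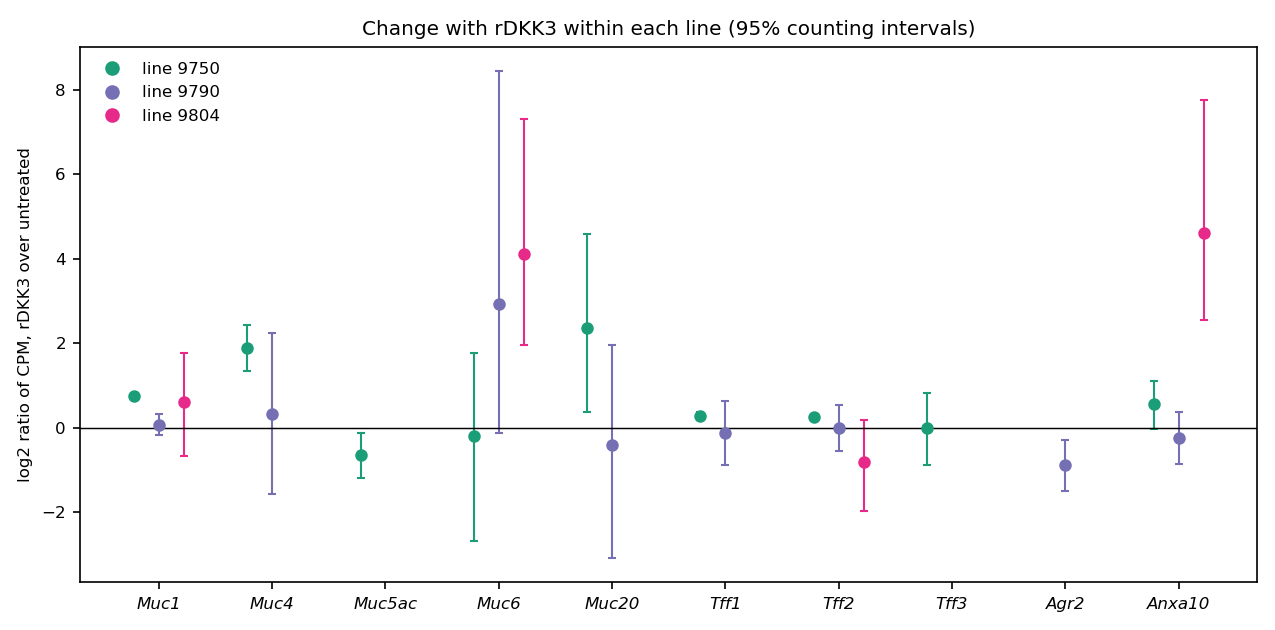
Log2 ratio of rDKK3-treated over untreated cells (y axis) for each gene (x axis) in DDKC_9750, DDKC_9790 and DDKC_9804, with 95% counting intervals as bars. Pairs with no more than 3 counts in both cultures, or with 0 counts in 1, are not drawn; Muc1 and Muc4 lie above 0 in DDKC_9750, and the intervals widen where counts are few.

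The members were compared with other genes of the same pathways. Of the 15 other mucins in the table, 5 were tested, none passed the rDKK3 test, and 4 differed between lines, against 35.3% of all genes. Muc5b, the gel-forming mucin gene next to Muc5ac, had 7.44 and 35.1 CPM in untreated and treated DDKC_9750 and at most 0.258 CPM in any other culture (rDKK3 adjusted p = 0.711). Muc5b was thus higher with rDKK3 in the line in which Muc5ac was lower. Cd164, a sialomucin, had 353 to 594 CPM in all cultures, and Mcam, an adhesion molecule, had 9.87 CPM in untreated DDKC_9750, 0.344 CPM in DDKC_9790 and 4.08 CPM in DDKC_9804.

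Of 32 mucin O-glycosylation enzymes, 24 were tested, while Galnt14 and St6galnac1 had 0 counts in all cultures. Of the 24, none passed the rDKK3 test, and 13 differed between lines (54.2%, against 35.3% of all genes). The most abundant were B4galt1 (galactosyltransferase, 262 CPM on average), B3gnt3 (225 CPM) and Galnt1, which starts O-glycans (166 CPM). B4galt1 was higher with rDKK3 in each line, from 273 to 550 CPM in DDKC_9750, with a log2 fold change of 0.42 ± 0.21 (adjusted p = 0.630). Gcnt1, a core 2 branching enzyme, was also higher in each line (0.47 ± 0.22, adjusted p = 0.620), and Gcnt4 was lower in each (-0.64 ± 0.19, adjusted p = 0.578).

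Among mucus secretion and secretory-cell factors, 19 of 25 genes in the table were tested, none passed the rDKK3 test and 12 differed between lines (63.2%, against 35.3% of all genes). Slc12a2, a chloride cotransporter (647 CPM on average), Xbp1, a transcription factor of the unfolded protein response (256 CPM), and Stxbp2, of the exocytosis machinery (105 CPM), were the most abundant. Creb3l1 was higher with rDKK3 in each line (0.87 ± 0.21, adjusted p = 0.578), as was Clca1 (1.46 ± 0.70, adjusted p = 0.620), and Foxa3 was lower in each (-1.35 ± 0.48, adjusted p = 0.580). Dmbt1, a mucin-like scavenger protein, and Spink4, of goblet cells, were picked after their values were seen. Dmbt1 had 15.6 and 252 CPM and Spink4 5.12 and 34.4 CPM in untreated and treated DDKC_9750, and both were at 0.599 CPM or below in every other culture, so their level followed the line as that of Muc5b did.

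Of the 23 genes of gastric (foregut) epithelium, 15 were tested. Of these, 14 differed between lines (93.3%, against 35.3%), and none passed the rDKK3 test. Onecut2, Tspan8 and Hnf4a, a transcription factor of foregut and gut epithelium, were the most abundant, with 303, 253 and 211 CPM on average, and untreated DDKC_9804 had 66.8 CPM of Hnf4a against 365 CPM in DDKC_9750. Cldn18, a tight junction protein of stomach, picked after its values were seen, had 253 and 175 CPM in DDKC_9750 and at most 0.493 CPM elsewhere, as the trefoil factors did. Of the 15 genes, 8 had their highest mean level in DDKC_9750 (53.3%), 5 in DDKC_9790 (33.3%) and 2 in DDKC_9804 (13.3%). Over all genes tested these shares were 35.0%, 33.9% and 31.2%. Sox2, a foregut transcription factor also picked after its values were seen, had 0 counts in DDKC_9750, 10.9 CPM in untreated DDKC_9790 and 21.1 CPM in untreated DDKC_9804, and Aqp5, a water channel, had 39.3 CPM in untreated DDKC_9750 against 301 CPM in untreated DDKC_9790. The median log2 fold change with rDKK3 was -0.389 over the 15 genes and -0.0054 over all genes tested. Aqp5 (-1.29 ± 0.21, adjusted p = 0.578) and Tspan8 (-0.71 ± 0.21, adjusted p = 0.578) were lower in each line, as was Vsig1, with 9.50 and 0.903 CPM in untreated and treated DDKC_9804 (adjusted p = 0.637).

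Anxa10 was set beside the 11 other annexins, of which all were tested and none passed the rDKK3 test. Of these, 8 were lower with rDKK3 in each of the 3 lines, against 18.1% of all genes, and the median log2 fold change was -0.324. Anxa2, a calcium-dependent membrane-binding protein, had -0.53 ± 0.13, Anxa5 -0.52 ± 0.12 and Anxa9 -0.39 ± 0.22, with adjusted p of 0.578, 0.578 and 0.650. Anxa3 was also lower in each line. Anxa10 had a fitted log2 fold change of 0.97, which was 0.16 without DDKC_9804, and within DDKC_9790 its ratio was -0.24.

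Agr2 was set beside 15 protein disulfide isomerases and folding factors of the endoplasmic reticulum. All were tested, none passed the rDKK3 test, and 3 of the 15 differed between lines, against 35.3% of all genes. P4hb, Hspa5 and Hsp90b1 had 1081, 964 and 961 CPM on average. DDKC_9750, with 0 counts of Agr2, had 1071 CPM of P4hb in untreated cells, against 1389 CPM in DDKC_9790. In treated cells the order was the other way, with 1390 CPM in DDKC_9750 against 977 CPM in DDKC_9790. Ero1b, an oxidase that recharges protein disulfide isomerase, was higher with rDKK3 in each line (0.20 ± 0.17, adjusted p = 0.744), and Txndc12, a thioredoxin-like protein, was lower in each (-0.15 ± 0.11, adjusted p = 0.721). Among ErbB receptors and EGF-family ligands, which signal at epithelial surfaces and with which membrane mucins are known to interact, 9 of 11 genes were tested, none passed the rDKK3 test, and 6 differed between lines (66.7%, against 35.3% of all genes). Hbegf (453 CPM), Erbb2 (116 CPM) and Areg (107 CPM) were the most abundant.

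**Figure D4:**
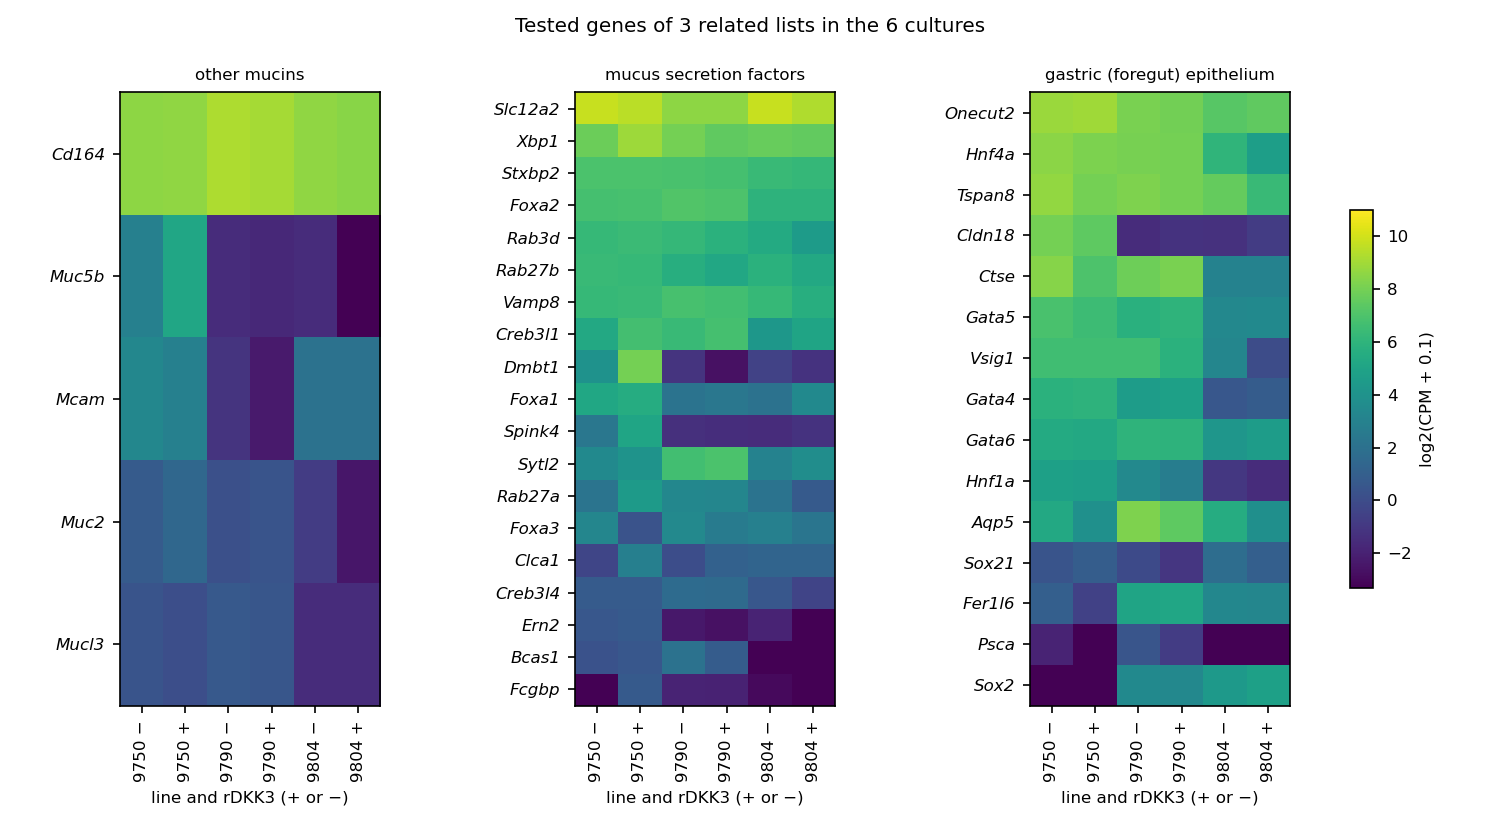
Levels, as log2(CPM + 0.1), of the tested genes of 3 lists (other mucins, mucus secretion factors, gastric epithelium) in the 6 cultures, labelled by line and by rDKK3 (+) or untreated (−). Muc5b, Dmbt1, Spink4 and Cldn18 are bright in the 2 columns of DDKC_9750 and dark in the other 4.

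The pattern of each gene over the 6 cultures was compared with that of 11378 protein-coding genes by Pearson's r of log2 CPM, as a description, since the 6 points share 3 lines. The genes most like Muc1 were Mst1r (r = 0.9985), Zfp532 and Nr1h3, and those most like Muc4 were Echdc2 (0.9984), Icam1 and Nfkbie. Tff1 was followed most closely by Tmem41a (0.9994), Epb41l4a and Pkp4, Tff2 by Pm20d1 (0.9987), Nexmif and Mtus2, and Tff3 by Cdkn2b, Ky and Cdkn2a. Muc5ac had Shank3 (0.9948), Ptgds and Phactr2, Agr2 had Fkbp7 (0.9966), Rtn3 and Chmp3, and Anxa10 had Dll1 (0.9931), Plk2 and Rnf183. Correlations this high are to be read against the few points, as between 1 and 22 genes reached an r of 0.99 or more for each gene.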

How the data were processed

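RNA of 3 Dkk3-null DDKC cell lines, untreated or rDKK3-treated, was measured in 12 libraries (directional, paired-end). The authors aligned reads with STAR 2.7.9a to GRCm39, counted them on GENCODE genes by strand with secondary alignments ignored, and deposited raw counts per gene, with 57278 rows including 92 spike-in rows at 0. Per the submitters' processing notes, Picard 2.19.2, DESeq2 1.38.0 and R 4.2.2 were also used. The formula of their model is not given in the sources used here.

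Here the 2 libraries of a line and condition were summed and tested in R 4.3.3 with edgeR 4.0.16 (quasi-likelihood test, TMM, line and condition as terms, Benjamini-Hochberg over 15165 genes kept by filterByExpr, threshold 0.05); the fit has 6 samples, and limma 3.58.1 was loaded with it. Log2 CPM used a prior count of 2. Lines were compared in the same fit by an F test and by pairs. Samples are paired by the cell line named in the labels. Deviations from the mean of each condition correlated at 0.805 to 0.874 within a line and at -0.536 to -0.266 between lines. Centering on 3 lines pulls the values between lines below 0, so their sign says nothing about the pairing. With the line as a term, the rDKK3 p-values measure how the treatment difference varied over the 3 lines. The p-values between lines rest on that same residual spread, with the untreated and treated cultures of a line as its 2 samples. Nothing in the labels says that the 2 libraries of a culture are separate cultures. Counting intervals are exact (Clopper-Pearson, conditional binomial, 95%), cover counting error only, and ratios against 0 counts used a floor of 3 counts per culture. Promoters were read from GRCm39 at the start of canonical transcripts (250 bases before, 50 after). The fit was tested on simulated data, where it recovered 23 of 50 genes changed 1.5-fold, 43 of 50 changed 2-fold and 50 of 50 changed 4-fold. The simulated spread was set below that of the data (common dispersion 0.0442). Changed genes had a mean above 50 counts, which most members did not reach, so the outcome does not carry over to those members.

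The members and lists were chosen with earlier results of these data known. Named were all members, Dkk3, of each list any gene called, the 3 most abundant and the 3 with the largest change in 1 direction in all lines (mean of at least 1 CPM), and per member the 3 most similar genes. Alternatives were DESeq2 1.42.0, RLE normalization, the low-count filter, each line left out, no line term, 12 separate libraries, each library series alone and thinning to 3822987 counts. Protein sequences were not analysed here, and 1 further allele of the mice and 1 promoter are not reported here.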

Additional observations from a re-analysis of the deposited data

How the results depend on the processing

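The number of genes passing the rDKK3 test was 1 and moved with the processing: 95 with DESeq2, 90 with no low-count filter, 0 with at least 10 counts in every culture (1191 genes at an unadjusted p under 0.05), 6 with the lower library numbers alone, and 0 to 2 when a line was left out. With the 12 libraries as separate samples it was 2744, and 3124 with the library series as a further term. With no replicate block (the line left out of the model) edgeR called 0 genes, and 94 had an unadjusted p under 0.05. The block with the line comes from the labels. Of the members with an adjusted p under these settings (3 with DESeq2, 2 with at least 10 counts in every culture), none passed except Muc1 and Muc4 in the 2 fits of 12 libraries (0.47 and 1.43, then 0.47 with adjusted p = 0.0191 and 1.57 with adjusted p = 0.00662).

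The sign of the small trefoil factor changes depended on the setting. Leaving out a line in turn gave -0.27 (without DDKC_9750) to 0.20 for Tff1 and -0.33 to 0.15 (without DDKC_9804) for Tff2. Tff1 was -0.0066 after thinning. Tff2 was 0.25 with no replicate block, 0.065 and 0.079 in the fits of 12 libraries, 0.13 with the lower library numbers and 0.098 after thinning. Tff3 was 0.47 with DESeq2, 0.0011 with RLE normalization and 0.037 with the higher library numbers. The cause was not tested. Muc1, Muc4 and Anxa10 stayed above 0 and Muc5ac and Agr2 below 0 in the alternatives that gave a value, but their size moved with the line left out: Muc1 was 0.21 and Muc4 0.11 without DDKC_9750, Muc1 was 0.72 and Anxa10 1.89 without DDKC_9790, and Anxa10 was 0.16 without DDKC_9804. Muc5ac was -3.34 without DDKC_9750, where 2 counts were left, and Agr2 was -5.03 without DDKC_9790, where 12 were left. Sign and size carry little in these 2 fits. Agr2 was -0.87 without DDKC_9804. After thinning, Agr2 was -0.47, Muc5ac -0.49 and Anxa10 0.65. The 78 recomputed within-line values stayed inside the counting interval of the value reported. They rescale the same counts or use 1 of the 2 summed libraries, so this was largely given in advance. Recomputed pairs under the floor or with 0 counts were left out.

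For the differences between lines, the count of genes was 5348, and 1540 without DDKC_9790 (4655 and 5053 without the others). Muc4, Muc5ac and Tff3 no longer passed without DDKC_9750 (adjusted p = 0.119, 0.430 and 1.0), and Agr2 did not without DDKC_9790 (0.247), since these lines hold nearly all their counts. Anxa10 passed with no low-count filter (0.0382), and in both fits of 12 libraries, where all 8 members and 11790 or 12211 genes in all passed. With no low-count filter Muc6 and Muc20 were tested too, and they passed neither the line test (adjusted p = 0.783 and 0.213) nor the rDKK3 test (1.99 with adjusted p = 0.803, and 0.97 with 0.949); Muc1 alone of the 10 then had an unadjusted rDKK3 p under 0.05 (0.0435). Few counts limit what can be said of Muc6, Muc20 and Tff3, and of members with at most 3 counts in DDKC_9804, although untreated DDKC_9804 was the deepest culture (36140718 counts); the treated culture of each line was shallower than its untreated one.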
